A study of Xenopus tropicalis with 8 samples.

Results

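Translation in the cytosol is carried out by the ribosome, a small and a large subunit built from ribosomal RNA and ribosomal proteins. Initiation factors bring the initiator tRNA, the messenger RNA cap and the subunits together, elongation factors deliver each charged tRNA, and aminoacyl-tRNA synthetases load the tRNAs with amino acids. Translation is also a point of control in germ cells, which store many messenger RNAs before they are translated.

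The levels of 20 genes of these families were measured in testis tissue of juvenile males of the frog Xenopus (Silurana) tropicalis. The tissue had been held for 6 h at 26 °C in L-15 culture medium, either with 5 µM finasteride, a drug that blocks steroid 5-alpha-reductase, or with none of it (0 µM, control). RNA of 4 samples per group was read on 8 one-colour Agilent arrays. The design text names 8 samples per arm, and 4 per arm were analysed here. The tissue is a whole organ of many cell types, so fewer cells of a type and less RNA per cell cannot be told apart. The labels name no strain, do not say whether an array holds 1 animal or a pool, and give nothing on how the finasteride was dissolved or what the controls received in its place.

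Genes were chosen by symbol. A probe was taken where its transcript accession, without the version number, belongs in the RefSeq gene table of this species to a ribosomal protein gene of the cytosol (rpl or rps), an initiation factor gene (eif), an elongation factor gene (eef) or a synthetase gene (ending in ars1). Of 162 such genes in that table, 21 were named on a probe, each on 1 probe. The array as named here is therefore a small sample of the families, and most thinly of the ribosome: 1 of 49 large-subunit symbols, 3 of 31 small-subunit symbols, 9 of 49 initiation, 4 of 17 elongation and 4 of 16 synthetase symbols were found. A gene was kept if, in one group or the other, 3 or more of the 4 arrays read its probe well above background. The 20 kept genes met this on all 8 arrays. The exception, eefsec, which encodes the elongation factor for selenocysteine, was well above background on 0 of 8 arrays.

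The symbols cover more than the proteins of the machinery itself. A protein of the ribosome proper is encoded by rps19. The protein of rpl7l1 is a nucleolar relative of a large-subunit protein, that of rps19bp1 binds the product of rps19, those of eef1akmt2 and eef1akmt4 are methyltransferases that act on elongation factor 1A, and that of eif2ak1 is a kinase. These 5 genes carry a family's symbol without being one of its own factors, which leaves 15 that are. In the gene order of the RefSeq table eif4g1, eef1akmt4 and eif2b5 lie near one another on 1 chromosome, with 4 entries between the first pair and 10 between the second. The names of 10 of the 20 probes hold xhyb in place of the word specific. They are the probes of rpl7l1, rps19, rps19bp1, eif2a, eif2ak1, eif3c, eif3k, eif4e1b, eif4h and eef1a1o. Whether these read their own gene alone was not tested.

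A level is the log2 intensity of a probe minus the 75th percentile of its array, so that 0 is that percentile. Intensities at the percentile ran from 719 on control 1 to 1798 on finasteride 2. The share of probes well above background ran from 73.3% to 77.2% on control arrays and from 70.5% on finasteride 4 to 86.9% on finasteride 3. Levels of different genes come from different probes and are not compared with each other. Of the markers fixed for the labelled tissue, piwil1 and tex15 of germ cells, spata4 and spata6 of spermatids, ar, cldn11 and krt18.2 of Sertoli cells and star and fdx1 of Leydig cells were well above background on all 8 arrays. The germ cell list had 2 tested genes of 23, the spermatid list 2 of 24, the Sertoli cell list 3 of 15 and the Leydig cell list 2 of 9. On a probe but not kept were sycp3 of germ cells and gdnf of Sertoli cells. The probe of sycp3 was well above background on 0 arrays, and that of gdnf on 0 control and 2 finasteride arrays. Lists for erythrocytes (2 tested of 4 on a probe), leukocytes (3 of 4), endothelium (3 of 5), liver (3 of 3), kidney (3 of 5) and muscle (0) were as thin. Of their tested genes, 1 erythrocyte, 1 leukocyte, 3 endothelium, 2 liver and 3 kidney genes were also well above background on all 8 arrays. Detection of the testis markers therefore does not by itself set this tissue apart.

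Of the 23 marker genes tested 0 passed the limma test described below. At an unadjusted p under 0.05 there were 4 of 23 (17.4%), against 4.00% of all probes, and the groups did not overlap for 5 of 23 (21.7%), against 2.07% of all probes. With finasteride the keratin gene krt18.2 had a log2 fold change of 0.69 (95% interval 0.23 to 1.16). It was 1.26 (0.67 to 1.85) for epb41 of the red cell membrane skeleton, whose probe was well above background on 4 finasteride arrays but 1 control array. The gene epb41 entered the test through the finasteride arrays alone, and its control mean of -5.57 is mostly a bound on its level there. Both shares above count this gene, admitted by the group where it is high. The leukocyte gene cd74, well above background on 1 control and 3 finasteride arrays, entered in the same way and is among the 23. The log2 fold change was 0.58 (0.16 to 0.99) for fgg, a fibrinogen gene of the liver list. It was -0.74 (-1.35 to -0.13) for slc12a3, a salt transporter gene of the kidney list. With another background correction (normexp) slc12a3 had -0.01, where the median of all probes was 0.23. With that correction epb41 had 0.97, krt18.2 0.89 and fgg 0.41. The probes of epb41 and fgg are xhyb probes. Each of the 4 had a limma adjusted p of 1.00. The fifth gene without overlap, the spermatid gene spata6, had 1.00 (-0.11 to 2.11), and 0.40 without finasteride 3. In the lists of these genes, every other tested gene had overlapping groups and an interval that held 0. Their differences were -0.72 for slc4a1 (erythrocyte), -0.05 for fga and -0.03 for alb (liver), where alb lacked a value on finasteride 3. They were -0.29 for pax2 and 0.02 for pax8 (kidney), 0.19 for ar and 0.10 for cldn11 (Sertoli cell), and 0.03 for spata4 (spermatid). The part of these markers in the values of the translation genes was not tested.

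The design asks which genes respond to finasteride within 6 h. None of the 20 translation genes was shown to differ. In limma, fitted over all 25652 probes tested, 0 of the 20 had an adjusted p under 0.05, against 0% of all probes, and the lowest adjusted p among them was 1.00. At an unadjusted p under 0.05 there were 0 of 20, against 4.00% of all probes. The 4 control values and the 4 finasteride values overlapped for all 20 genes, while 2.07% of all probes had groups that did not overlap. No gene of the 20 reached a 1.5-fold difference in either direction, which 5.66% of all probes did.

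The differences were small and lay on both sides of 0. The log2 fold change, finasteride minus control, was above 0 for 13 genes and below 0 for 7, with a median of 0.04, against a median of 0.01 over all probes. It ran from -0.56 for eif4h to 0.27 for wars1. Among the 15 genes that are a family's own factors 11 were above 0 and 4 below, and the median was again 0.04. Over all 25652 probes tested, 13135 lay above 0 and 12517 below. The size of the difference without its sign had a median of 0.09 among the 20 genes and 0.14 over all probes.

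The number of arrays sets how small a difference could be seen. The half-width of a gene's 95% interval had a median of 0.46 and ran from 0.33 for aars1 to 1.00 for eif4h. All 20 intervals held 0. For 19 of the 20 genes, all but eif4h, the interval lay within a 2-fold change in either direction, and for 12 it lay within 1.5-fold. The difference could not be told from 0 for any gene, and the intervals do not show that the genes were equal in both groups. The plot of differences gives the value of 19 genes, each with its interval.

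**Figure D1:**
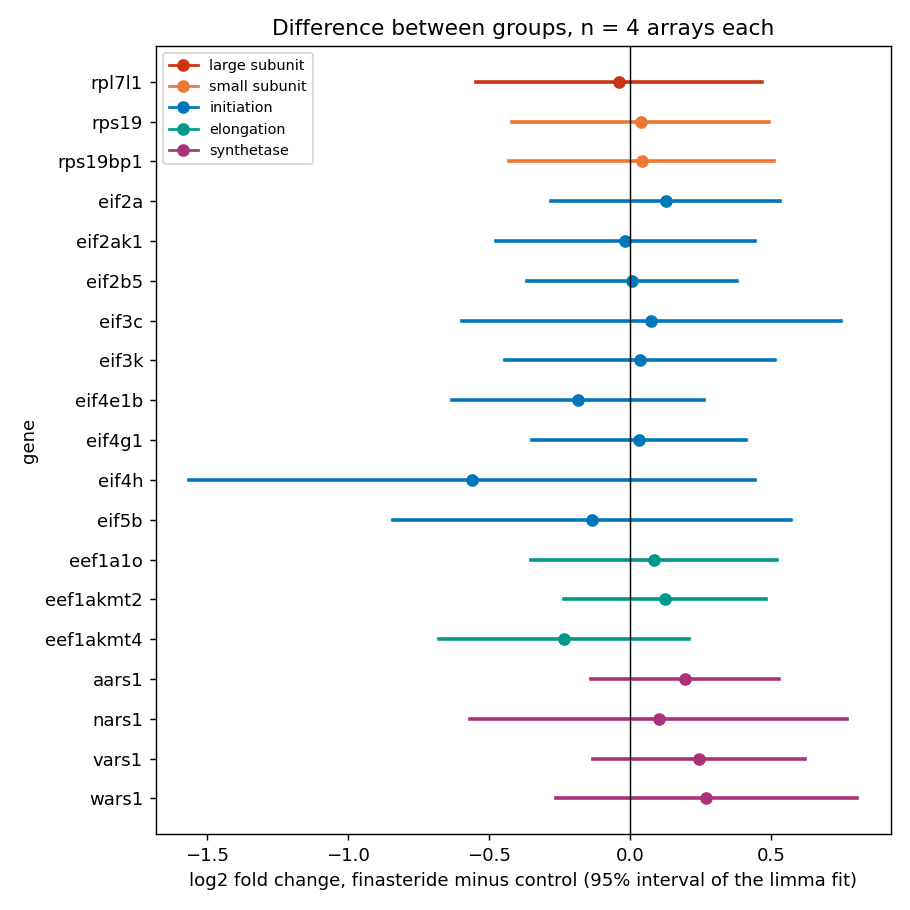
Log2 fold change of 19 of the 20 translation genes (x axis, finasteride minus control, points) with the 95% interval of the limma fit (lines), n = 4 arrays per group, coloured by role. All intervals shown cross 0, and the points run from -0.56 for eif4h to 0.27 for wars1.

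The small subunit was read from rps19, whose product sits in the ribosome itself. On control arrays 1 to 4 rps19 stood at 3.19, 2.60, 2.82 and 2.45, and on finasteride arrays 1 to 4 at 3.15, 2.67, 2.71 and 2.68. Its highest values were on control 1 and finasteride 1 and all other arrays lay lower, so that the spread ran across both groups alike. The group means were 2.76 ± 0.32 and 2.80 ± 0.23 (SD, n = 4 each), a log2 fold change of 0.04 (95% interval -0.42 to 0.50).

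The gene rps19bp1, whose product binds that of rps19, stood at 4.095, 3.82, 3.87 and 3.38 in controls. With finasteride it stood at 4.23, 3.69, 3.86 and 3.55. In each group replicate 1 was the highest and replicate 4 the lowest, and the log2 fold change was 0.04 (-0.43 to 0.51). The nucleolar gene rpl7l1, the only large-subunit symbol, ran from -1.63 to -1.17 in controls and from -1.81 to -0.90 with finasteride, where finasteride 1 was the highest of all arrays. Its log2 fold change was -0.04 (-0.54 to 0.47).

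Initiation had the most genes, 9. Of these 5 had higher and 4 lower mean values with finasteride, 0 passed, and the median log2 fold change was 0.01. The gene eif4h, whose product stimulates the RNA helicase that unwinds the start of the messenger RNA, had the widest spread of the 20. It stood at -1.36, -3.39, -2.62 and -3.49 on control arrays and at -2.74, -3.45, -3.84 and -3.07 on finasteride arrays. Control 1 lay far above the other arrays, and without it the other controls lay inside or just above the range of the finasteride values. The means were -2.71 ± 0.98 and -3.27 ± 0.47 (SD, n = 4 each), and the log2 fold change of -0.56 had an interval of -1.56 to 0.44 (limma adjusted p = 1.00). Without control 1 that difference was -0.11, within slide 2 it was -0.04 and within slide 1, which holds control 1, it was -1.08. With normexp background correction it was 0.16, where the median of all probes was 0.23, so that eif4h lay below that median in both.

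Recognition of the cap and assembly on the messenger RNA were read from eif4g1, the scaffold of the cap-binding complex, and eif4e1b, a relative of the cap-binding protein known from oocytes. For eif4g1 control arrays stood at -0.33, -0.13, -0.20 and -0.23 and finasteride arrays at -0.39, -0.07, -0.41 and 0.12. All control values lay inside the finasteride range, and the log2 fold change was 0.03 (-0.35 to 0.41). The oocyte-type gene eif4e1b stood at -3.14, -2.52, -2.93 and -2.77 in controls and at -3.31, -3.14, -2.99 and -2.65 with finasteride. Its probe was well above background on all 8 arrays, and most finasteride values lay in the lower part of the range. The log2 fold change of eif4e1b was -0.18 (-0.63 to 0.26), and it was 0.32 with normexp, where the median of all probes was 0.23. That shift differed between probes, as given further below.

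Factor eIF3, which holds the small subunit ready for the messenger RNA, was represented by its subunit genes eif3c and eif3k. For eif3k the control arrays stood at 2.90, 2.62, 2.78 and 2.77 and the finasteride arrays at 3.28, 2.55, 2.38 and 3.00. Finasteride 1 and finasteride 4 lay above every control and finasteride 2 and finasteride 3 below every control, so that the SD was 0.12 in controls and 0.41 with finasteride. The means were 2.77 and 2.80, a log2 fold change of 0.03 (-0.44 to 0.51). The subunit gene eif3c ran from -5.30 to -4.05 in controls and from -5.08 to -4.01 with finasteride, and its log2 fold change was 0.08 (-0.60 to 0.75). With normexp it was 0.84, against that median of 0.23, from a probe with a control mean of -4.67. Dim probes outside the families read near that value with normexp. For rps6ka5, at a control mean of -4.72, the difference moved from 0.07 to 0.76, and for rps6ka4, at -4.19, from -0.03 to 0.75.

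The supply of the initiator tRNA and its control were read from eif2a, eif2b5 and eif2ak1. The first encodes a factor that can bind the initiator tRNA apart from the main factor eIF2, the second the catalytic subunit of eIF2B, which reloads eIF2 with GTP, and the third a kinase that puts eIF2 out of action when heme is short. For eif2a, control arrays stood at 3.34, 3.25, 3.42 and 3.54 and finasteride arrays at 3.73, 3.30, 3.23 and 3.81. Finasteride 1 and finasteride 4 again lay above every control, and the log2 fold change was 0.13 (-0.28 to 0.53). For eif2b5 it was 0.01 (-0.36 to 0.38), from means of -2.59 ± 0.13 and -2.58 ± 0.23 (SD, n = 4 each). The kinase gene eif2ak1 stood at 0.32, 0.61, 0.28 and 0.16 in controls and at 0.09, 0.59, 0.67 and -0.04 with finasteride. Its lowest values were on finasteride 1 and finasteride 4, the arrays on which eif2a and eif3k were highest, and its log2 fold change was -0.02 (-0.48 to 0.44). The last initiation gene, eif5b, whose product joins the subunits, ran from -5.08 to -3.69 in controls and from -5.14 to -4.35 with finasteride. Its difference was -0.13 (-0.84 to 0.57), and 0.17 without control 3, the array of its highest value.

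Elongation was read from 3 genes. The gene eef1a1o encodes the form of elongation factor 1A known from Xenopus oocytes, the protein that carries charged tRNA to the ribosome. It stood at -0.25, 0.11, -0.18 and 0.34 on control arrays and at -0.03, 0.23, -0.19 and 0.36 on finasteride arrays. The ranges of both groups were nearly the same, with replicate 4 the highest in each, and the log2 fold change was 0.09 (-0.35 to 0.52). The methyltransferase genes that act on this factor had values on opposite sides of 0. For eef1akmt4 control arrays stood at 0.95, 1.12, 0.83 and 1.23 and finasteride arrays at 0.60, 0.76, 1.28 and 0.55. Finasteride 1, 2 and 4 lay below every control and finasteride 3 above every control. The means were 1.03 ± 0.17 and 0.80 ± 0.33 (SD, n = 4 each), with a log2 fold change of -0.23 (-0.68 to 0.21). Without finasteride 3 it was -0.39, the groups then did not overlap, which held for 4.71% of all probes in that fit, and the limma adjusted p was 0.987. Without finasteride 4 the difference of eef1akmt4 was -0.15. For eef1akmt2 the difference was 0.12 (-0.23 to 0.48).

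All 4 cytosolic synthetase genes had higher mean values with finasteride, and 0 of the 4 passed. Their median log2 fold change was 0.22, against 0.01 over all probes. With normexp it was 0.12, below the median of 0.23 over all probes, and without control 4 it was 0.14. The shift with normexp was not equal between probes, as given further below. The valine enzyme gene vars1 stood at 1.01, 1.04, 1.12 and 0.61 in controls and at 1.24, 1.00, 1.32 and 1.18 with finasteride. Finasteride 1, 3 and 4 lay above every control and finasteride 2 just below the 3 highest controls. The means were 0.94 ± 0.23 and 1.19 ± 0.14 (SD, n = 4 each), and the log2 fold change of 0.24 had an interval of -0.13 to 0.62 (limma adjusted p = 1.00). Within slide 1 it was 0.23 and within slide 2 it was 0.26. For vars1 it was 0.13 without control 4, the array of its lowest value, 0.14 with array weights and 0.08 with normexp.

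The alanine enzyme gene aars1 stood at 1.93, 1.90, 1.96 and 1.77 in controls and at 2.31, 2.02, 2.06 and 1.95 with finasteride. Only finasteride 4 fell within the control range, just under control 3. Its means were 1.89 ± 0.09 and 2.09 ± 0.16 (SD, n = 4 each), a log2 fold change of 0.20 (-0.14 to 0.53). Without finasteride 1, its highest array, it was 0.12. Without control 3 or without finasteride 4 the groups of aars1 did not overlap, as held for 5.70% and 5.60% of all probes in those fits, with limma adjusted p-values of 0.995 and 0.985. The groups of vars1 did not overlap without finasteride 2, as held for 4.88% of all probes in that fit.

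The tryptophan enzyme gene wars1 stood at -4.69, -4.49, -3.98 and -4.89 in controls and at -4.05, -4.04, -4.72 and -4.16 with finasteride. Control 3 and finasteride 3 each lay apart from the rest of their group, in opposite directions. The log2 fold change of wars1 was 0.27 (-0.26 to 0.81), the largest on the higher side. It was 0.15 without control 4 and 0.45 without control 3. For the asparagine enzyme gene nars1 it was 0.10 (-0.57 to 0.77), with control arrays at 0.02, -0.48, 0.22 and -0.34 and finasteride arrays at 0.55, -0.89, 0.06 and 0.11. Finasteride 1 gave the highest and finasteride 2 the lowest value of nars1 on any array, and without finasteride 1 its difference was -0.09.

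**Figure D2:**
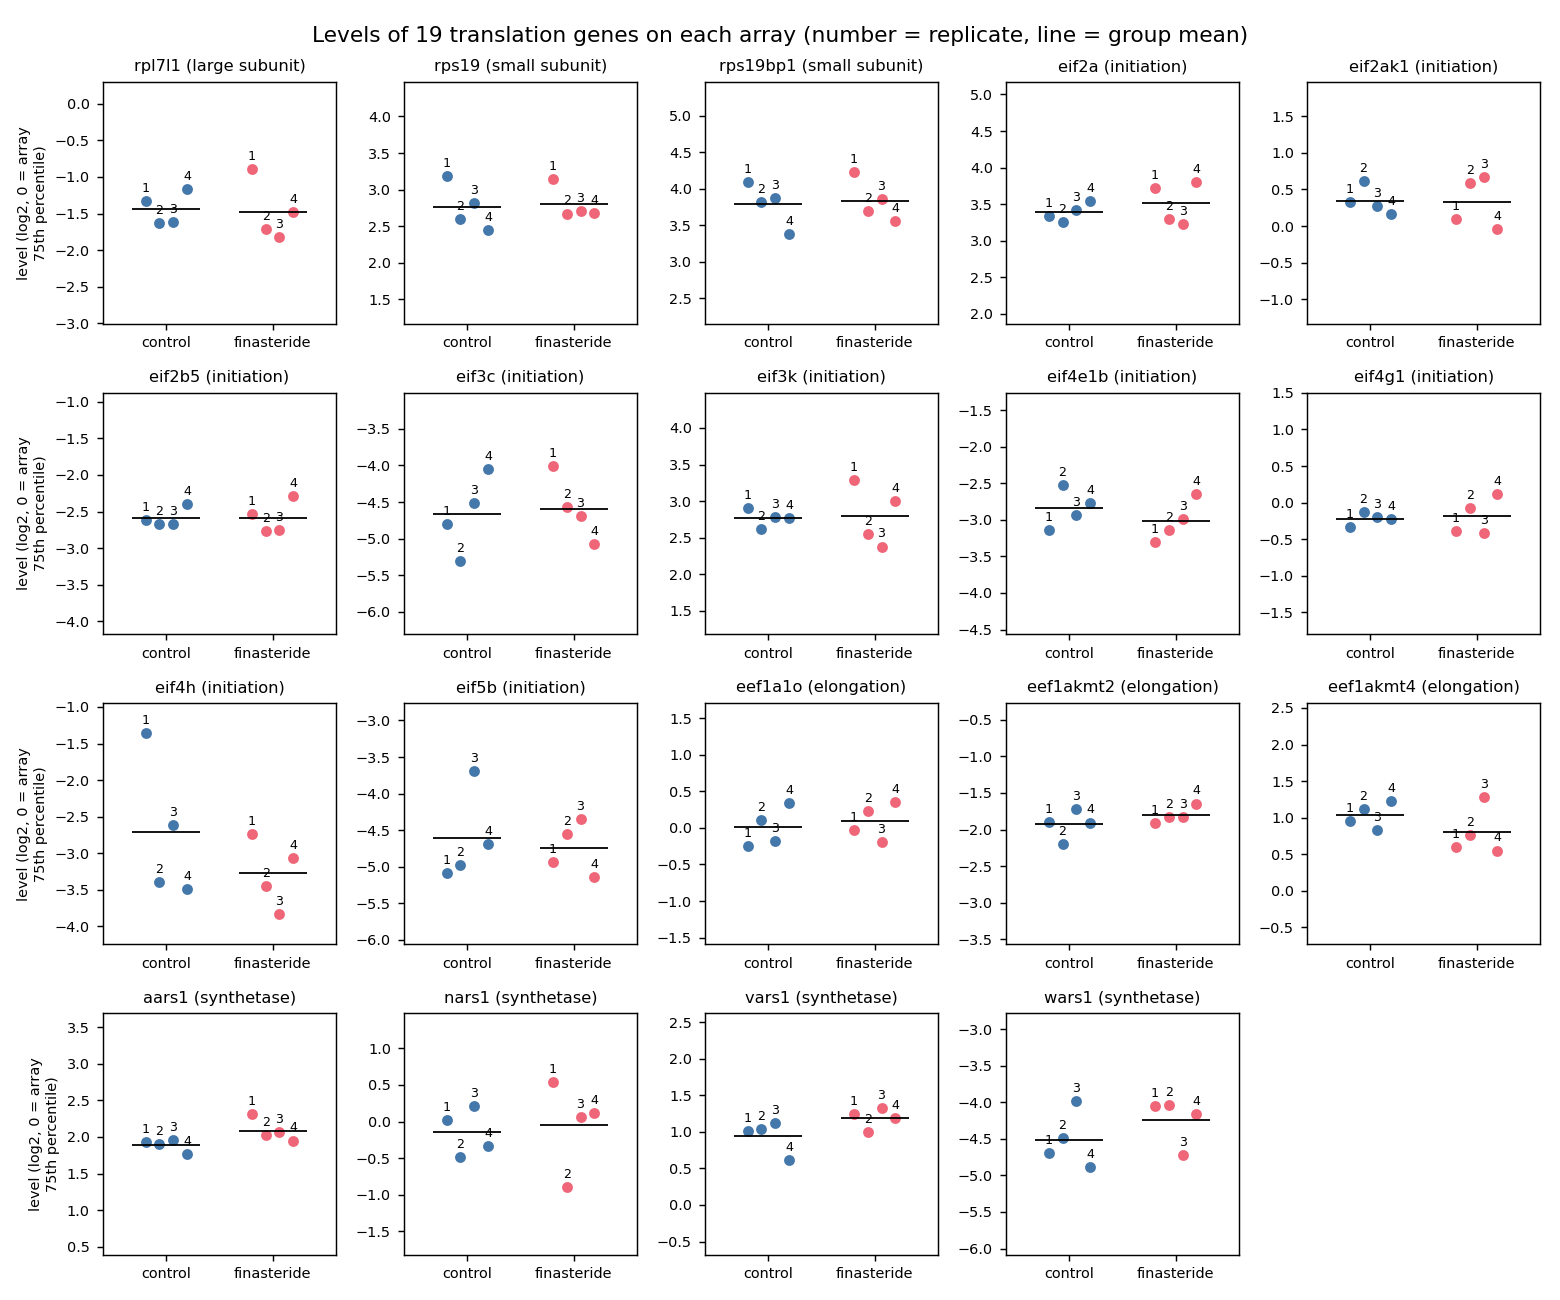
Level of 19 of the 20 translation genes on each array (y axis, log2 intensity relative to the 75th percentile of the array, each panel spanning the same range of log2 units), by group, with the replicate number above each point and a line at the group mean. The groups overlap in every panel, and control 1 of eif4h, at -1.36, stands far above the others.

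The median level of the 20 genes ran from -0.30 to -0.19 on control arrays and from -0.48 on finasteride 2 to 0.04 on finasteride 4. Measured from each gene's control mean, the median deviation was 0.18 on finasteride 1, 0.12 on finasteride 4 and -0.04 on both finasteride 2 and finasteride 3, while that of all probes tested lay between -0.06 and 0.05 on every array. Finasteride 1 was the highest of the 8 arrays for 6 genes, finasteride 4 for 5 and finasteride 3 for 4. The lowest value fell on control 4 for 5 genes and on finasteride 3 for 5. On finasteride 1 the germ cell marker tex15 also stood apart, at -1.95, while finasteride 2, 3 and 4 lay between -0.11 and 0.35. On finasteride 3 the spermatid marker spata6 read 0.25. Its values on finasteride 1, 2 and 4 ran from -2.39 to -1.89 and those of the controls from -2.60 to -2.53. The other tested germ cell marker, piwil1, read -0.06 on finasteride 1, inside its control range of -0.18 to 0.77. The other tested spermatid marker, spata4, read 2.07 on finasteride 3, its lowest on any array, with controls from 2.09 to 2.39. What part these 4 markers had in the values of the translation genes was not tested.

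The spread between arrays was also set beside that of all probes. The SD was larger among finasteride arrays than among control arrays for 11 of the 20 genes (55.0%), and for 71.2% of all probes. The median SD of the 20 genes was 0.23 in controls and 0.31 with finasteride, and over all probes it was 0.23 and 0.35. These shares are a description and were not tested against each other.

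**Figure D3:**
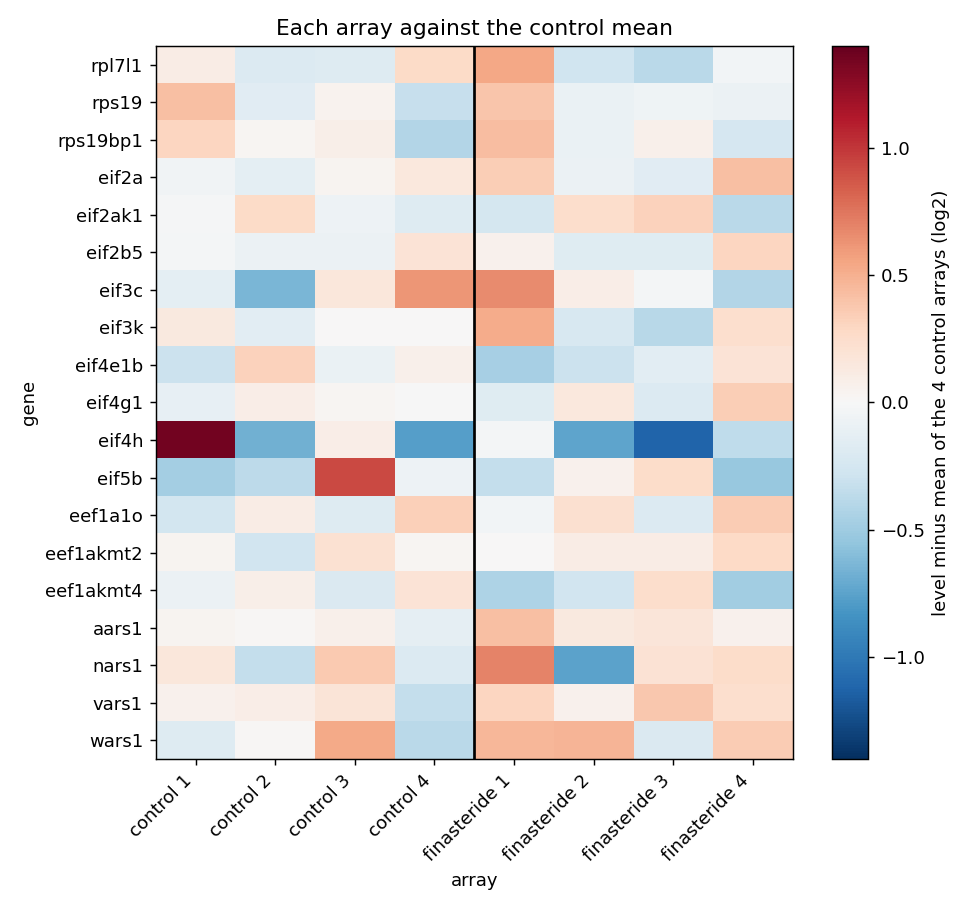
Level of 19 of the 20 genes on each array minus the mean of the 4 control arrays (colour, log2 units), with control arrays left of the line and finasteride arrays right of it. No column is of one colour throughout, and the strongest colours lie in the row of eif4h.

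The slide each array was printed on could be separated from treatment, since both slides held 2 arrays of each group. Slide 1 held control 1 and 2 and finasteride 3 and 4, and slide 2 held control 3 and 4 and finasteride 1 and 2. A change between slides in finasteride minus control is thus the same contrast as numbers 3 and 4 against 1 and 2. Dependence on slide and dependence on replicate number cannot be told apart here. Among the 20 genes the difference had opposite signs on the 2 slides for 13. With slide as a block 0 genes passed, within slide 1 and within slide 2 also 0, and 0 probes passed a limma test of whether the difference depended on the slide (344 at an unadjusted p under 0.05, with 0 of the 20 genes among them). Controls took array positions 1 and 3 of a slide and finasteride samples positions 2 and 4, so effects of position and of treatment cannot be told apart. Across 21 other ways of processing or of leaving out an array, 15 of the 20 genes changed sign at least once. The 5 that did not were aars1, vars1, wars1 and eif2a, above 0, and eef1akmt4, below 0. Since normexp moved the median of all probes to 0.23, the sign was also read from the median of all probes in each setting. Read in that way 17 of the 20 genes changed side at least once, among them aars1, vars1 and eif2a, with normexp alone. The 3 that stayed on one side in every setting that included their probe were wars1, above, and eif4h and eef1akmt4, below, and none of them passed in any. The shift with normexp was not equal between probes. The difference of eif3c, at a control mean of -4.67, moved from 0.08 to 0.84. That of eif3k, at a control mean of 2.77, moved from 0.03 to 0.08. That of wars1, at -4.52, moved from 0.27 to 0.85, and that of aars1, at 1.89, from 0.20 to 0.15. Outside the families, the difference of rictor, at a control mean of -3.96, moved from 0.01 to 0.74. For pax8, at 1.15, it moved from 0.02 to 0.05. The median of all probes is thus not the shift of each gene. The counts of 17 and 3 include normexp, so they do not measure how steady each gene's difference was. The part of a probe's level in these sides was not tested.

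**Figure D4:**
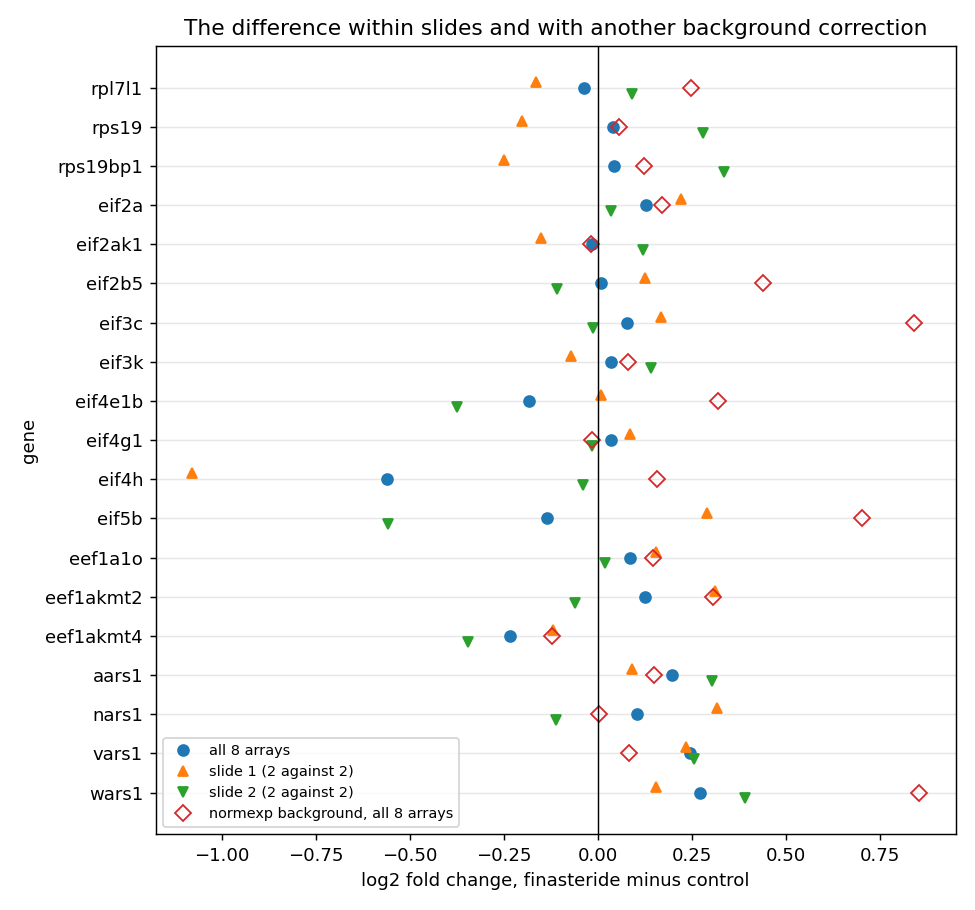
Log2 fold change of 19 of the 20 genes (x axis, finasteride minus control) over all 8 arrays, within slide 1, within slide 2 (2 arrays against 2 on each slide) and with normexp background correction. Slides lie on opposite sides of 0 for 12 of the 19 genes shown, and normexp moved eif3c, eif5b and wars1 to between 0.70 and 0.85.

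Genes that act beside these families were read from 4 lists, of which 1 gene, n6amt1, had an unadjusted limma p under 0.05 and 0 passed. This is 1 of 51 tested genes (1.96%), against 4.00% of all probes. The groups did not overlap for 2 of the 51 (3.92%), n6amt1 and nop2, against 2.07% of all probes. Of 113 genes fixed for ribosome biogenesis, the making of the subunits in the nucleolus, 26 were tested. Of these 18 had higher and 8 lower mean values with finasteride, 0 passed, and the median log2 fold change was 0.06. Over all probes tested 13135 were higher and 12517 lower. The rRNA methyltransferase gene nop2 stood at 0.81, 0.90, 0.89 and 0.67 in controls and at 1.06, 1.06, 1.097 and 0.91 with finasteride, all above the controls, the only gene of the 26 whose groups did not overlap, which held for 2.07% of all probes. Its difference was 0.21 (-0.11 to 0.53, limma adjusted p = 1.00). The gene rrn3, whose product recruits RNA polymerase I, had 0.40 (-0.05 to 0.86), and 0.26 without finasteride 3.

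Signalling to translation was covered by 11 tested genes of 58 fixed for the mTOR pathway and the integrated stress response. Of these 8 had higher and 3 lower mean values, 0 passed, and the median was 0.05. The stress response transcription factor gene ddit3 was well above background on 0 control arrays and on 3 finasteride arrays. It entered the test through the finasteride arrays alone, and its control mean of -5.55 is only a bound on its level there. As fitted, its log2 fold change was 0.44 (-0.19 to 1.08, limma adjusted p = 1.00), and 0.22 without finasteride 3. The kinase gene mknk2, whose product phosphorylates the cap-binding protein, had -0.19 (-0.64 to 0.27).

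Other genes of tRNA charging, most of them synthetases of the mitochondrion, gave 13 tested of 36. Of these 7 had higher and 6 lower mean values, 0 passed, and the median was 0.01. The leucine enzyme gene lars2 had 0.39 (-0.31 to 1.08), from a probe well above background on 2 control and 3 finasteride arrays, and 0.15 without finasteride 4. Like ddit3, lars2 entered the test through the finasteride arrays alone. So did ddx21 (0.40) and dhx37 (-0.10) of ribosome biogenesis and mars2 (-0.09) and cars2 (-0.02) of tRNA charging. Each of these was also well above background on 2 control and 3 finasteride arrays. The counts of higher and lower genes in these lists include them. The threonine enzyme gene tars2 had 0.28 (-0.28 to 0.84), and 0.09 without finasteride 1. Of 27 genes fixed for termination, ribosome recycling and poly(A) binding, 1 was tested: n6amt1, the catalytic subunit of the methyltransferase of release factors, read by an xhyb probe. It stood at -2.96, -3.07, -2.97 and -2.70 in controls and at -2.45, -2.37, -2.25 and -2.42 with finasteride, a difference of 0.55 (0.22 to 0.89, limma adjusted p = 1.00).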

How the data were processed

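Per the file headers, the deposited intensity of each spot came from the scanner software Agilent Feature Extraction 10.7.1.1 with the JGI 4.1 build, along with flags for outliers, saturation and signal well above background. The authors' deposited table holds log2 values with a median of 7.25 on each array. Their normalization was not stated in any source used here.

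Log2 processed intensity was averaged over the spots of a probe, without control and outlier spots, and the 75th percentile of each array was subtracted. Probes well above background on at least 3 of 4 arrays of either group were tested (25652 of 32899) with limma 3.58.1 in R 4.3.3, group as the only term, two-sided, Benjamini-Hochberg over all of them, threshold 0.05. The steps were tested on simulated data. The 2 genes of lowest p were named in each of the 4 other translation lists, marker genes whose groups did not overlap were named after their values were seen, and all members but 1, which is not reported here by itself and is counted in the summaries of the 20 genes, are named. The files name no genes. Of the probes, 5891 matched a transcript of the RefSeq table of another assembly (UCB_Xtro_10.0), used for symbols and gene order. Members and lists were chosen with earlier results of these data known. Nothing says the arrays hold separate animals. The p-values therefore rest on the spread among these 8 samples alone, part or all of which may be technical. Alternatives were another background correction (normexp, offset 50), scalings, filters, blocks, weights and probe choices, and each array left out.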

Additional observations from a re-analysis of the deposited data

Results flagged for a closer look

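For rps19, finasteride 1 stood at 3.15, far from the other finasteride arrays, which lay between 2.67 and 2.71. For wars1, finasteride 3 stood at -4.72, with the others between -4.16 and -4.04. By the measure used, a gap to the nearest value of over 0.829 of the group's range, these were the only such samples in 40 groups of 4 values examined, where chance gives about 1 in 20, or 2 here.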

How the results depend on the processing

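Of the 20 translation genes 0 passed under each of the 21 alternatives, with limma adjusted p-values from 0.893 to 1.00, and their median log2 fold change ran from -0.040 without finasteride 1 to 0.15 with normexp, where the median of all probes was 0.23. Normexp was run on median spot signals. Probes past the threshold numbered 0, but 1 within slide 2 and 0 to 7 with 1 array left out (7 without control 3). Genes with no overlap between groups numbered 0 to 1 with 1 array left out, and were not counted within a slide. Among the genes reported one by one, the sign turned with normexp for eif4e1b (0.32), eif4g1 (-0.016), eif4h (0.16), eif5b (0.70) and rpl7l1 (0.25), and with median centring for eif2ak1 (0.0062). With array weights it turned for eif2ak1 (0.056), eif2b5 (-0.034), eif3k (-0.10), eif5b (0.11), nars1 (-0.23), rps19 (-0.12) and rps19bp1 (-0.12). Within slide 1 it turned for eif3k (-0.071), eif4e1b (0.0080), eif5b (0.29), rps19 (-0.20) and rps19bp1 (-0.25), and within slide 2 for eef1akmt2 (-0.060), eif2ak1 (0.12), eif2b5 (-0.11), eif3c (-0.014), eif4g1 (-0.017), nars1 (-0.11) and rpl7l1 (0.089). With 1 array left out the sign was not the same throughout for eef1a1o (-0.0028 to 0.20), eif2ak1 (-0.13 to 0.11), eif2b5 (-0.090 to 0.071), eif3c (-0.14 to 0.28), eif3k (-0.13 to 0.18), eif4g1 (-0.069 to 0.11), eif5b (-0.29 to 0.17), nars1 (-0.094 to 0.38), rpl7l1 (-0.23 to 0.075), rps19 (-0.077 to 0.18) and rps19bp1 (-0.094 to 0.14). The cause of these turns was not tested. In the fit that took replicate numbers as a block, 0 probes passed and 0 of the 20 genes. Arrays of the same number deviated together at r = 0.30 and 0.36 for numbers 1 and 2 and not for 3 and 4 (-0.06 and -0.03), so the numbers were not taken as pairs. For numbers 1 and 2 the array of the same number was also the best match in the other group, and for 3 and 4 it was not.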

Other observations

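The 4 ribosomal protein S6 kinase genes left out of the families by their symbol had log2 fold changes of 0.08 (rps6ka2), -0.03 (rps6ka4), 0.07 (rps6ka5) and 0.05 (rps6kc1), and 0 of 4 passed. The 1 member not kept, eefsec, stood between -8.56 and -6.48 on the 8 arrays.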
